A study of Homo sapiens with 2 samples.

Results

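Tetraspanins are small membrane proteins that cross the membrane repeatedly and expose a small and a large extracellular loop. They bind one another, integrins, immunoglobulin-type receptors and membrane proteases in assemblies called tetraspanin-enriched microdomains, and so act on adhesion, receptor shedding, endosomal sorting and exosome release. In the urothelium the uroplakins UPK1A and UPK1B, both tetraspanins, build the plaques of the apical surface, and CD82, also known as KAI1, is known as a suppressor of metastasis in several carcinomas.

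The genes described here were chosen by name: a symbol made of TSPAN and a number, or CD9, CD37, CD53, CD63, CD81, CD82, CD151, UPK1A, PRPH2 or ROM1. Of 32 RefSeq genes that meet this rule, 31 were measured, through 32 probe sets that name a single gene, among 14232 genes in all. TSPAN19 was not measured. The tetraspanin UPK1B lies outside the rule and is given below with the uroplakins.

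RNA came from J82, an established human bladder cancer cell line grown in medium with serum and given no treatment. Cells were stained with the DNA dye Hoechst and sorted into a side population (SP), which keeps little dye because it pumps it out, and a non-side population (NSP), which retains it. Each population was measured on 1 human exon array, and the comparison of interest is between cells of 1 line that exclude the dye and cells that hold it. With 1 array per population there is no spread between samples and no test, and each value describes these 2 arrays only. Fewer cells of a type and less RNA per cell cannot be told apart.

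Values are log2 signals, and the quantity compared is the SP value minus the NSP value. A difference counts here as past the threshold at 1.5-fold or more in a gene with at least 1 value of 7.44 or more. That level, the median over both arrays, is called the floor. For the 7549 genes that reached it the median difference was -0.05, the SD between genes was 0.281 and the central 90% ran from -0.42 to 0.46. Pearson's r between the arrays was 0.986 across 22011 probe sets, which are no replicates.

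Markers of cell identity were mixed in both populations. All 4 mesenchymal markers reached the floor, with VIM at 10.12 in SP and 10.16 in NSP. Of the 4 epithelial junction markers DSP (10.15 in SP, 10.33 in NSP) reached it and CDH1, EPCAM and CLDN4 did not. Among 9 luminal urothelial markers 5 reached the floor, among them the keratin genes KRT8 (13.18 and 12.77) and KRT18 (10.57 and 10.32). PPARG (9.20 and 8.50) also reached it and was 1.62-fold higher in SP, the only marker of this list past 1.5-fold. Of all genes that reached the floor, 3.1% were at least 1.5-fold higher in SP. UPK2, UPK3A, KRT20 and GATA3 did not reach the floor. The summed linear signal of this luminal list was 12300 in SP and 9437 in NSP, most of it from KRT8, and without KRT8 it was 2997 and 2475. Of its 9 members 7 were higher in SP. Of all genes, 40.1% of those that reached the floor and 59.6% of those under it were higher in SP. The part of the luminal marker difference in the tetraspanin values was not tested.

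Over all 31 genes the family stood close to the background, with the widest differences towards lower values in SP. CD82 and TSPAN12 were each 1.57-fold lower in SP, CD63 was 1.26-fold lower and TSPAN6 1.24-fold lower. At the other end TSPAN7 was 1.15-fold higher in SP among members above the floor. Of the 31 genes, 18 had a lower value in SP, 12 a higher one and TSPAN16 the same value. Across all genes, 49.5% were lower in SP and 49.2% higher. The median difference of the 31 was -0.05, and that of all genes was 0.00.

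The 17 members at or above the floor did so on both arrays, so none passed through 1 population alone. Of these, 12 were lower in SP and 5 higher, with a median of -0.18 against -0.05 for all genes that reached the floor. In the whole table, 59.6% of genes that reached the floor were lower in SP and 40.1% higher. The 14 members under the floor split into 6 lower, 7 higher and 1 equal, where 38.1% of all genes under the floor were lower. Lower values in SP were thus more frequent among members at or above the floor than under it, as in the array as a whole. With the trend on signal level removed, 19 of the 31 members were lower in SP and 12 higher, with a median of -0.08. CD81, above the floor, turned to higher, and CD53 and TSPAN16, under it, turned to lower. The shares of members lower in SP above and under the floor thus came closer. The share of all genes after this step is not given here. The part of the trend on signal level in the tetraspanin signs was not tested. At 1.5-fold, 2 of the 17 were lower in SP against 1.43% of all genes that reached the floor, and none was higher against 3.1%. Once the trend on signal level was removed the count past 1.5-fold was 1. CD82, at -0.5875, was barely past it and TSPAN12, at -0.5768, just short. At 1.2-fold 4 of the 17 (23.5%) were lower, against 16.5% in the background, and none was higher, against 11.3%.

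**Figure D1:**
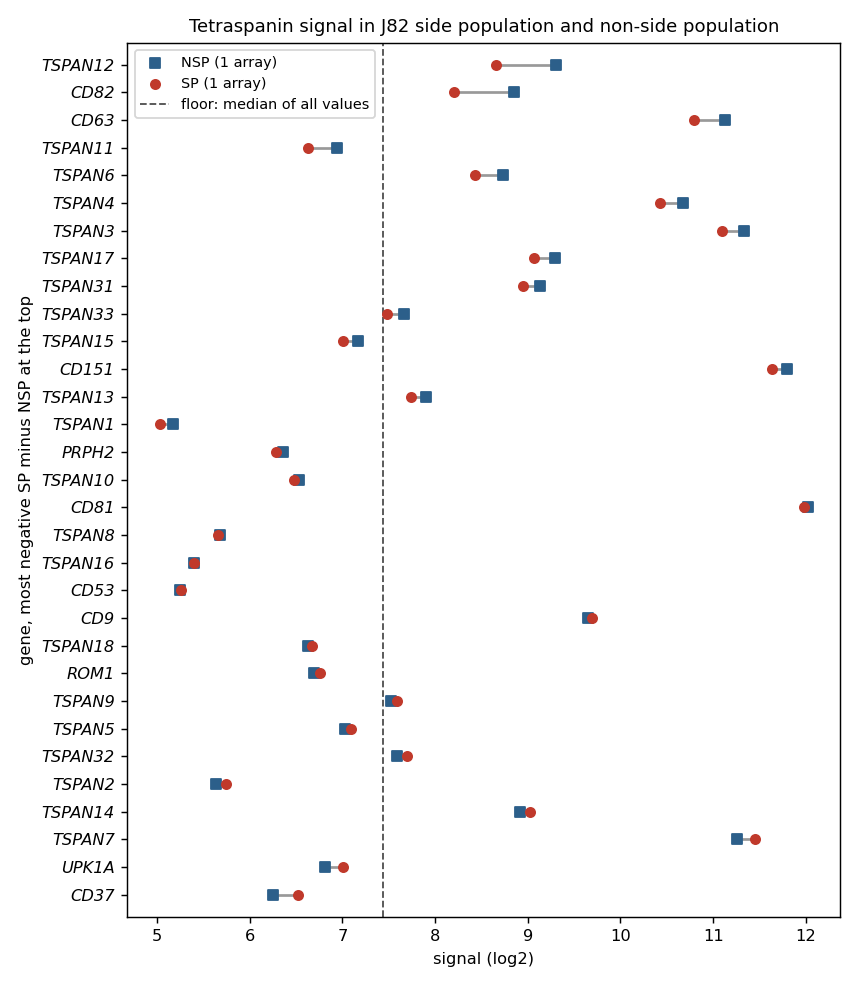
Log2 signal of the 31 tetraspanin genes (rows, ordered by SP minus NSP) in SP (red circles) and NSP (blue squares), 1 array each, with the floor of 7.44 as a dashed line. TSPAN12 and CD82 show the widest gaps, each with SP to the left of NSP, and for no gene does the floor fall between the 2 values.

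CD82 and TSPAN12 are the members on which the comparison turns, and the stretches upstream of their starts are shown because both genes differed by the same margin. TSPAN14, a member only slightly higher in SP (0.11), is shown beside them. A difference as high or higher was found in 24.2% of genes that reached the floor. No promoter was given for TSPAN7, the member above the floor with the largest higher value in SP. Each sequence covers 250 bases directly upstream of the RefSeq start on GRCh38.p14, written 5′ to 3′ in the direction of transcription. Capitals mark GC boxes (GGGCGG) and TEAD-type motifs (GGAATG), each on either strand.
CD82 (chr11:44565413-44565662, plus strand): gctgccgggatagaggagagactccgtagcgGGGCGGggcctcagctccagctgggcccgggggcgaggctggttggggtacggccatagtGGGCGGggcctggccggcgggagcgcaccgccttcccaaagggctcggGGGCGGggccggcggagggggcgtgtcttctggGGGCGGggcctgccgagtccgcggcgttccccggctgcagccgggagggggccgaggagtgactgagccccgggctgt
TSPAN12 (chr7:120858145-120858394, minus strand): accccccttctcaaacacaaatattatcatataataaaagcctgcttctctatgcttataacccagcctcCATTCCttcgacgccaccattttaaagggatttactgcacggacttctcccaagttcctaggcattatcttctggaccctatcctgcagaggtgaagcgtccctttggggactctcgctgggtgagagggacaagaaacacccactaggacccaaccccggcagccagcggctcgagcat
TSPAN14 (chr10:80454060-80454309, plus strand): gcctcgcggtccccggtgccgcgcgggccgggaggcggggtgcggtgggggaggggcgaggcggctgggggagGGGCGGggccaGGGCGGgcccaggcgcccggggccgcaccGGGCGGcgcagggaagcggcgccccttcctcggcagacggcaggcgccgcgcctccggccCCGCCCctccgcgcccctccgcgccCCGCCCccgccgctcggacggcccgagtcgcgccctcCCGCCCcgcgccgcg
The CD82 stretch held 4 GC boxes and no TEAD-type motif, with 77.2% G and C and a CpG ratio of 0.746. This ratio is the number of CpG pairs over the number that the C and G content would give. The TSPAN12 stretch held no GC box and 1 TEAD-type motif, with 50.8% G and C and a CpG ratio of 0.527. TSPAN14 had 6 GC boxes and a ratio of 0.930. The letters upstream of CD82 and TSPAN12 were thus unlike, and those of CD82 resembled TSPAN14 more in these measures. Of 27303 promoters in the RefSeq table, 42.3% held a GC box and 11.9% the TEAD-type motif in the same window. For measured genes at or above the floor, as are all the genes shown, the shares were 70.2% and 8.93%. A match describes letters and is not a binding site.

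The CD-numbered tetraspanins of broad expression, CD9, CD63, CD81, CD82 and CD151, all lay above the floor. CD82 had a signal of 8.20 in SP and 8.85 in NSP, a difference of -0.65. A difference as low or lower was found in 0.967% of all genes that reached the floor. CD63, a resident of late endosomes and exosomes, stood at 10.80 in SP and 11.13 in NSP, a difference of -0.33, which 9.60% of genes at or above the floor matched or exceeded downwards. CD151, the partner of laminin-binding integrins, had 11.63 and 11.80 (difference -0.16). CD81, a partner of the B cell receptor complex and an entry factor for hepatitis C virus, had 11.98 and 12.02, a difference of -0.05 that turned to 0.03 once the trend on signal level was removed. CD9, which acts in gamete fusion and binds the EWI proteins, had 9.69 and 9.64 (difference 0.04). Of the 3 common exosome markers in this group, CD63 was therefore lower in SP and CD9 and CD81 were nearly level.

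TSPAN12 assists Norrin signalling through the receptor Frizzled-4 and also binds the protease ADAM10. Its signal was 8.66 in SP and 9.31 in NSP, a difference of -0.65 that 0.954% of genes at or above the floor reached or passed downwards. FZD4, the Frizzled-4 gene, was 1.47-fold lower in SP (7.36 against 7.91), and its SP value lay under the floor. LRP6, a co-receptor gene for Wnt and Norrin, was 1.53-fold higher (8.77 against 8.16). The ligand gene NDP was under the floor at 5.33 and 5.48, and LRP5 was not measured. The receptor components therefore did not differ in a single direction. With TSPAN12 counted, the 4 measured genes of the Norrin list had 3 values lower in SP and 1 higher.

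The TspanC8 tetraspanins, named for the cysteines of their large loop, guide ADAM10 to the cell surface. All 6 were measured and 3 reached the floor. TSPAN17 was 1.17-fold lower in SP (9.06 against 9.29), TSPAN33 1.13-fold lower (7.48 against 7.66) and TSPAN14 1.08-fold higher (9.03 against 8.92). TSPAN15 (-0.16), TSPAN10 (-0.05) and TSPAN5 (0.07) had both values under the floor. The subgroup had 4 lower and 2 higher members and a median of -0.11, and none reached 1.2-fold. For comparison, 59.6% of array genes that reached the floor, and 38.1% of those under it, had the lower value in SP. A decrease of 1.2-fold or more was found in 16.5% of array genes that reached the floor, and such an increase in 11.3%. Most array genes there thus also fell short of 1.2-fold. ADAM10 itself was not measured by a single-symbol probe set. ADAM17 and NOTCH2 of the same list were not measured either. The 10 measured genes, which encode proteins shed by ADAM proteases, had 5 lower values in SP and 5 higher, with a median of 0.00 to 2 decimals. The neural adhesion gene L1CAM (-0.19), NOTCH1 (-0.15) and APP (-0.11), which encodes the amyloid precursor protein, had the largest sizes above the floor.

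Several other members above the floor were lower in SP by small margins. TSPAN6, which acts in endosomal sorting, stood at 8.43 in SP and 8.74 in NSP (-0.31). TSPAN4, a component of migrasomes, the vesicles that migrating cells leave behind, had 10.43 and 10.68 (-0.25). TSPAN3 had 11.10 and 11.33 (-0.23). TSPAN31 had 8.95 and 9.14 (-0.19), and its gene is known for amplification together with CDK4 in sarcomas. TSPAN13 had 7.74 and 7.90 (-0.16). All of these lay inside the central 90% of genes at or above the floor. TSPAN7, best known for its role at neuronal synapses and in X-linked intellectual disability, had 11.45 in SP and 11.25 in NSP (0.20), and 15.5% of genes that reached the floor had a difference as high or higher. TSPAN9, found in platelets, had a mean difference of 0.07 over 2 probe sets, whose own differences were 0.00 and 0.14.

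**Figure D2:**
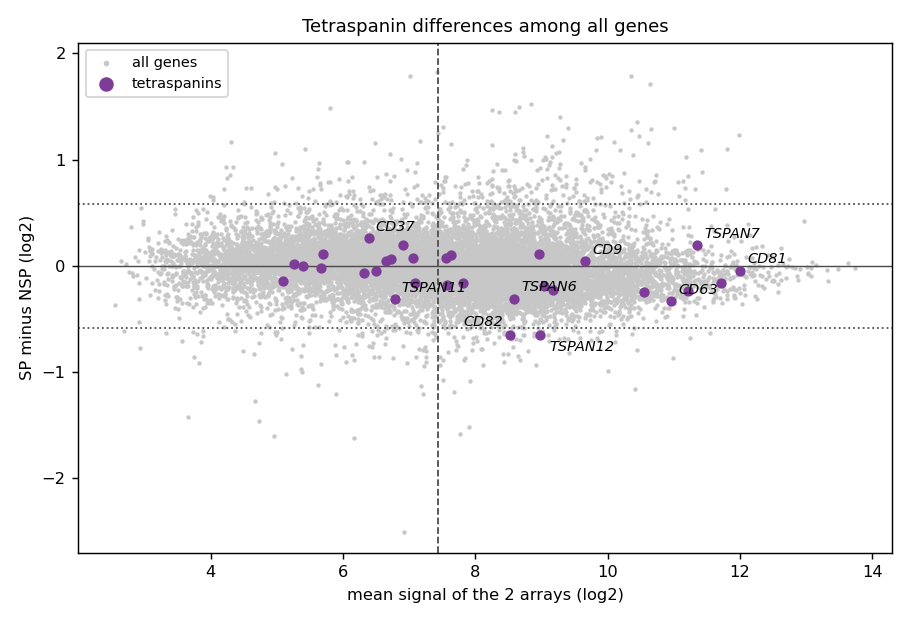
SP minus NSP (log2) against the mean signal of the 2 arrays (log2) for all 14232 genes (grey) and the 31 tetraspanins (purple, some named), with dotted lines at 1.5-fold and the floor dashed. CD82 and TSPAN12, both at -0.65, are the tetraspanins beyond the dotted lines, and TSPAN7 stands at 0.20.

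Among the leukocyte and photoreceptor tetraspanins only TSPAN32 reached the floor. The leukocyte genes CD37 (6.52 in SP, 6.26 in NSP) and CD53 (5.26 and 5.25) lay under it. TSPAN32, a haematopoietic member, lay just above at 7.69 and 7.59. The 3 were higher in SP by 0.26, 0.01 and 0.11, and the sign of CD53 turned once the trend on signal level was removed. Higher values in SP were found in 59.6% of all genes under the floor and 40.1% of those that reached it. Of 7 measured leukocyte markers 2 reached the floor, LCP1 at 10.70 in SP and 11.01 in NSP and CD14 at 7.73 and 7.64, while PTPRC, the pan-leukocyte marker CD45, stood at 3.74 and 3.80. Of these markers 4 were higher in SP and 3 lower, with a median difference of 0.09. Their summed linear signal was 2094 in SP and 2469 in NSP, most of it from LCP1, and without LCP1 it was 433 and 402. The part of these markers in the values of CD37, CD53 and TSPAN32 was not tested. The photoreceptor disc proteins PRPH2 (6.29 and 6.36) and ROM1 (6.76 and 6.69) were under the floor, as were all 5 measured photoreceptor markers.

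The uroplakin UPK1A had 7.01 in SP and 6.81 in NSP, a difference of 0.20 under the floor. Its relative UPK1B stood at 5.35 and 5.10, UPK2 at 7.39 and 7.09 and UPK3A at 6.37 and 6.54. All of them were under the floor in both populations, and UPK3B was not measured. Of the remaining members TSPAN11 was 1.24-fold lower in SP with both values under the floor (6.62 and 6.94). TSPAN1 (-0.14), TSPAN8 (-0.02), TSPAN18 (0.05) and TSPAN2 (0.11) were also under it. TSPAN16 had the same value of 5.40 on both arrays, and such identical pairs occurred in 223 of the 22011 probe sets.

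Some tetraspanin genes are neighbours on chromosome 11 in the RefSeq order. CD151 and TSPAN4 are separated by 1 protein-coding gene, POLR2L, and all 3 were lower in SP, with differences of -0.16, -0.25 (TSPAN4) and -0.34 (POLR2L). CD82 lies next to TSPAN18, which had a difference of 0.05 against -0.65. TSPAN32 lies next to CD81, with 0.11 against -0.05. Neighbours thus shared a sign in 1 of these pairs. With the trend on signal level removed, CD81 had 0.03 and TSPAN32 0.12, so this pair then shared a sign too. TSPAN18 lay under the floor.

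The CpG content of the upstream stretches overlapped between members on each side of the floor. A promoter was given for 23 of the 31 genes, not for CD37, CD81, CD151, TSPAN3, TSPAN7, TSPAN9, TSPAN18 and TSPAN32. The median CpG ratio was 0.650 for the 11 of these at or above the floor and 0.277 for the 12 under it. The ratios ran from 0.403 to 1.07 in the first group and from 0.050 to 1.19 in the second. Over all measured genes the medians were 0.836 and 0.536, so the family showed the same order as the whole table. A ratio over 0.6 was found in 7 of the 11 and 3 of the 12 (TSPAN5, TSPAN11 and TSPAN2), against 82.9% and 45.9% of all measured genes on the same sides of the floor. A GC box was found in 7 of the 11 and 6 of the 12, against 70.2% and 43.8%. Probe affinity differs between probe sets, so a place above or below the floor is a coarse measure of level.

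**Figure D3:**
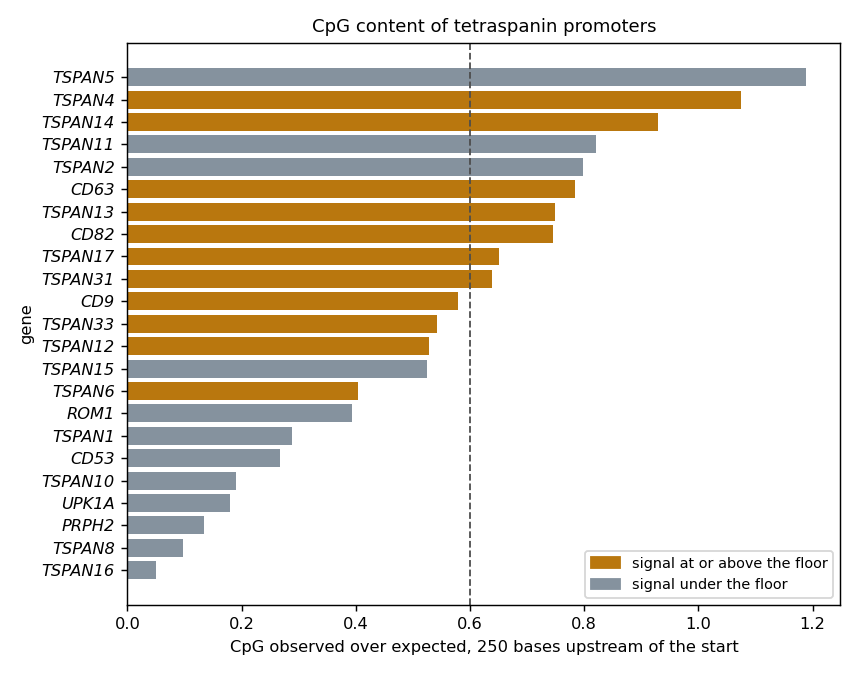
CpG observed over expected in the 250 bases upstream of the start for the 23 tetraspanins in the promoter table, coloured by whether their signal reached the floor, with 0.6 as a dashed line. The colours overlap: 7 of 11 genes at or above the floor and 3 of 12 under it exceed 0.6, and TSPAN5, at 1.19 the highest bar, has a signal under the floor.

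The lists of tetraspanin partners gave small differences. Of 9 measured integrin genes 6 were lower in SP and 3 higher, with a median of -0.05. ITGA3, the laminin-binding partner of CD151, was 1.27-fold lower in SP (10.77 against 11.12). ITGB1, the shared beta subunit, was 1.17-fold lower (10.35 against 10.58) and ITGA5, the fibronectin receptor subunit, 1.09-fold lower. ITGB4, also a subunit of a laminin-binding integrin, had 8.95 in SP and 8.88 in NSP (0.08). None of the 6 integrin genes at or above the floor reached 1.5-fold, against 4.53% of all genes there.

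Other membrane partners (14 measured) had a median of -0.06, with 9 lower and 4 higher. The EWI genes IGSF8 (-0.14) and PTGFRN (-0.16), which bind CD9 and CD81, were both slightly lower in SP. The adhesion receptor gene VCAM1 stood apart at 8.33 in SP and 6.50 in NSP, a 3.54-fold difference, and it passed the floor through SP alone. BSG, which encodes basigin (-0.22), and ICAM1 (-0.18) had the next largest sizes.

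Multivesicular body and exosome genes (18 measured) had 12 lower and 6 higher members and a median of -0.06. VPS36 (-0.37) and CHMP2A (-0.30), of the ESCRT sorting machinery, and FLOT2 (-0.31), which encodes a flotillin, were lower in SP, while RAB27B (0.28), which acts in exosome release, and STAM (0.28), also of the ESCRT machinery, were higher by nearly the same size. SDCBP, which encodes syntenin, the adaptor that binds CD63, had 12.22 in SP and 12.15 in NSP. None of the 17 genes of this list at or above the floor reached 1.5-fold, against 4.53% of all genes there. ZDHHC genes encode palmitoyltransferases, which attach a lipid that helps tetraspanin assemblies form. Of 23 measured, 15 were lower and 8 higher, with a median of -0.08. ZDHHC20 (-0.36), ZDHHC2 (-0.29), whose product palmitoylates CD9 and CD151, and ZDHHC6 (-0.28) had the largest sizes above the floor. ZDHHC2 passed it through NSP alone (7.18 in SP, 7.48 in NSP). The L6 family, a separate group of proteins with a similar layout, had all 5 measured members under the floor and a median of -0.02. These counts cover genes on both sides of the floor, where the shares of all genes lower in SP were 59.6% (reaching it) and 38.1% (under it).

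**Figure D4:**
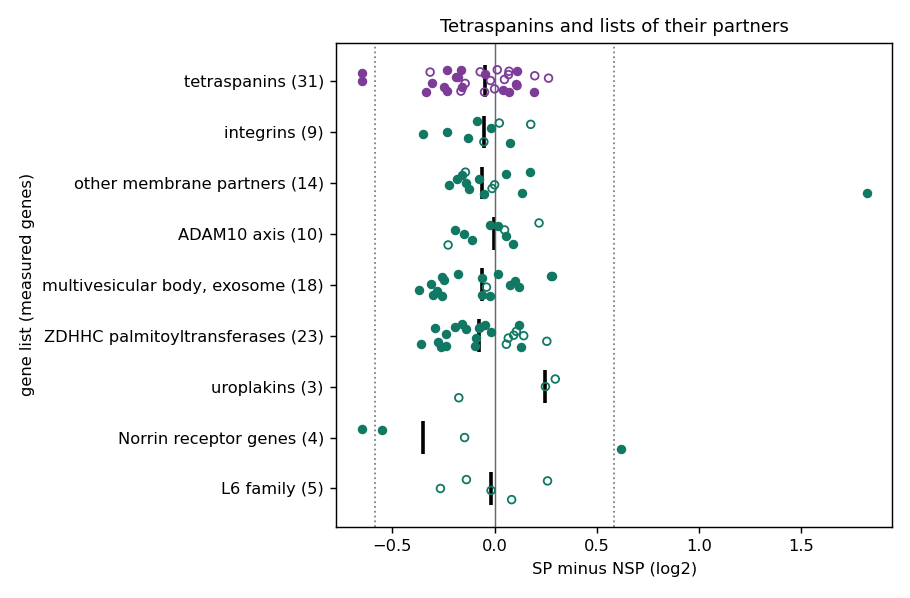
SP minus NSP (log2) of tetraspanins (purple) and partner lists (green), with the number of measured genes in brackets, filled points for genes at or above the floor, open points for genes under it, black bars for medians and dotted lines at 1.5-fold. Medians lie between -0.35 for the Norrin list, which includes TSPAN12, and 0.25 for the 3 uroplakins, which are all under the floor, and VCAM1 is the point at 1.82.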

How the data were processed

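J82 cells were sorted into SP and NSP, with 1 exon array each. The deposited values are log2 signals per probe set, made by the authors with RMA and Partek per the submitters' processing notes. Their versions and any filter were not given in the sources used here. RMA shrinks differences at low signal, and the number of arrays limits precision.

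Genes were named from the 14432 single-symbol probe sets of the platform annotation, with symbols updated through Entrez IDs in the RefSeq annotation of GRCh38.p14 (14404 matched). Probe sets of a gene were averaged. No build is named for the array, so no gene coordinates are given. Promoters came from the RefSeq table for GRCh38.p14. No test was possible. All measured members were named, and of each partner list the 3 with the largest size above the floor, with ADAM10, ITGB1, IGSF8, PTGFRN, SDCBP and UPK1B. FZD4, LRP6, NDP, UPK2, UPK3A, ITGB4, RAB27B, STAM and the marker genes were added after their values were seen, to show their groups. Of these, FZD4 and LRP6 also meet the size rule for their list. Members and lists were chosen with earlier results of these data known. Counting was tested on simulated data. Alternatives covered the floor, fold threshold, centring, normalisation and the choice of probe sets. Python 3.11.15, numpy 2.4.6, pandas 2.3.3, statsmodels 0.14.6 and matplotlib 3.10.9 were used.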

Additional observations from a re-analysis of the deposited data

How the results depend on the processing

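No paired analysis was possible because each population has 1 array, and no replicate could be left out. Of the 31 tetraspanins 28 kept the sign of their difference under every alternative run; the others were CD81, CD53 and TSPAN16. A value counted as moved where it shifted by more than 0.1 (log2) or a count by over 1.5 times. Removing the trend on signal level (lowess, span 0.3) left 1 tetraspanin past 1.5-fold in place of 2. CD82, at -0.5875, was barely past it and TSPAN12, at -0.5768, just short. At 1.2-fold 4 passed and at 2-fold 0. Limiting the family to members with both values at or above the floor changed the median from -0.05 to -0.18 and the number higher in SP from 12 to 5, as did asking this of the higher value, an alternative chosen after seeing the data. The other membrane partners, the list that holds VCAM1, had a mean of 0.0764 and a median of -0.06. The uroplakin median of 0.25 became a mean of 0.12, and 0.061 with the floor at the 25th percentile. The Norrin list, at -0.35, became -0.18 as a mean, -0.017 with both values at the floor, and -0.55 with the lower floor or with the higher value at the floor. Depth here is signal over background, which the table does not give, so detection could not be judged for the 14 members under the floor.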

Other observations

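Probe sets annotated with several genes were left out of the comparison, and 2 of them name a tetraspanin. The probe set for RAB3D and TSPAN16 was 1.49-fold lower in SP (8.11 against 8.69), whereas the TSPAN16 probe set had equal values. RAB3D encodes a secretory vesicle GTPase, and the probe set does not say which of these genes gave the signal. With it averaged in, TSPAN16 had a difference of -0.29. The probe set for CDK4 and TSPAN31 had 11.87 in SP and 11.96 in NSP (-0.09), against -0.19 for TSPAN31 alone.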
